A study of Mus musculus with 16 samples.

Results

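Cytochrome P450 genes were followed across 16 mouse kidney RNA libraries, 4 in each of 4 groups. Members were the rows of the deposited count table whose symbol starts with Cyp and continues with a family number, a subfamily letter and a gene number, with Cyp27b1 and Cyp24a1 left out. The rule, which uses names only, found 98 of the 52338 genes in the table. All groups were C57BL6 mice on a high-fat diet. The kidneys were taken 15 days after FAN or vehicle, and the mice had eaten either ad libitum or on a time-restricted schedule. The 4 groups are vehicle ad libitum, vehicle time-restricted, FAN ad libitum and FAN time-restricted. FAN is not spelled out in the labels, although the column names of all the libraries, vehicle included, carry the word folic. The labels give no dose, age, feeding window or hour of tissue collection.

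Cytochrome P450 enzymes are heme proteins that insert an oxygen atom into lipids, steroids, vitamins, drugs and other foreign compounds. Those in the endoplasmic reticulum draw electrons from Por, the P450 reductase, and those in mitochondria from a ferredoxin. In the rodent kidney most P450 protein lies in the proximal tubule, where Cyp4a enzymes hydroxylate the end of fatty acid chains and Cyp2j and Cyp2c enzymes turn arachidonic acid into epoxides. Such hydroxy acids and epoxides act on vessel tone and on salt transport.

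Library totals ran from 12450812 to 33976660 counts. The lower limit of detection, 3 counts, equals 0.0883 to 0.241 counts per 1000000 (CPM) of these plain totals. The CPM levels given below are also divided by a scaling factor for each library (TMM). It was 1.32 to 1.53 in FAN ad libitum and 0.816 to 0.975 in the other groups. On that scale the limit is lower in FAN ad libitum and higher in the other groups than on plain totals. The labels list separate samples and do not say that each came from its own animal, so p-values measure the spread between these libraries. The column names hold a number after the letter S, whose meaning is not stated, and these numbers fall into 3 ranges. The lowest range holds libraries of every group, with FAN time-restricted represented by 1 library, and each higher range holds only vehicle or only FAN libraries. Within FAN ad libitum, libraries 6 and 7 of the lowest range and libraries 10 and 12 of a higher range stood apart: counts differed by a chi-square per gene of 20.7 and 26.7 within the ranges and of 146 to 155 between them. Vehicle ad libitum 1 also stood apart, at 52.8 to 86.0 from the other libraries of its group, which were 18.4 to 26.5 from each other, and FAN time-restricted 11 was at 62.6 from library 6. No call for FAN under ad libitum feeding was lost without vehicle ad libitum 1. Markers of the labelled tissue were present: 12 proximal tubule genes summed to 15218 to 17489 CPM in vehicle ad libitum kidneys and 15724 to 17927 in the time-restricted vehicle kidneys. In FAN ad libitum they summed to 2324 to 4361 CPM, and in the time-restricted FAN group to 8423 to 10142.

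Mitochondrial transcripts held 10.3 ± 3.83% (SD, n = 4) of counts in FAN ad libitum against 24.9 ± 2.40% with time-restricted feeding. In vehicle kidneys they held 20.3 ± 2.32% under ad libitum and 19.8 ± 1.35% under time-restricted feeding. With these transcripts left out, the counts of called members for FAN under ad libitum feeding did not change.

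Of the 98 members, 49 had enough counts to be tested among 17731 genes. Another 18 had no count in any library, and 31 had at least 1 count but stayed low, the highest being Cyp2t4 at 0.495 CPM in a single library. The untested genes include 12 of 15 Cyp2c genes, 8 of 9 Cyp3a genes and 5 of 6 genes of steroid hormone synthesis, groups best known from liver and adrenal cortex. Of the liver list, Ahsg, Cps1, Serpina3k and Mup20 were too low to be tested in any group, and the adrenal regulator Nr5a1 was at 0 in every library of all groups but vehicle time-restricted. The 8 genes of the liver list summed to 10.2 to 28.2 CPM and the 7 of the adrenal list to 9.78 to 36.6 CPM, over all libraries. The other liver markers were tested: Alb, Apoa1 and Apoa2 were lower and Fgb higher after FAN under ad libitum feeding, and Alb and Apoa2 were higher with time-restricted feeding in FAN mice. Of the 5 tested adrenal markers, Mc2r, Akr1b7 and Scarb1 were higher after FAN under ad libitum feeding, and Mc2r and Scarb1 were lower with time-restricted feeding in FAN mice. The part of these cell types in the members' levels was not tested.

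The kidneys of FAN mice held less P450 RNA than those of vehicle mice, and within FAN mice the time-restricted kidneys held more than the ad libitum ones. The 98 genes summed to 12422 ± 1243 CPM (SD, n = 4) in vehicle ad libitum kidneys and to 14415 ± 1321 CPM in the time-restricted vehicle group. After FAN the sum was 2820 ± 723 CPM under ad libitum feeding and 8946 ± 779 CPM under time-restricted feeding. As a share of all counts, without the scaling factor, the genes held 0.405 ± 0.108% in FAN ad libitum and 0.823 ± 0.0975% in FAN time-restricted. The vehicle shares were 1.10 ± 0.0718% under ad libitum and 1.23 ± 0.0676% under time-restricted feeding. The relative gaps of FAN ad libitum to the other groups were smaller on this scale. No library of FAN ad libitum, at 2195 to 3863 CPM, came near the FAN time-restricted libraries at 7836 to 9628, and those in turn lay below all vehicle libraries, at 11354 or more. In such bulk samples, fewer cells of a type and less RNA per cell cannot be told apart. The proximal tubule markers above moved the same way, and their part in the P450 levels was not tested. Sums over the members are given as a description only.

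**Figure D1:**
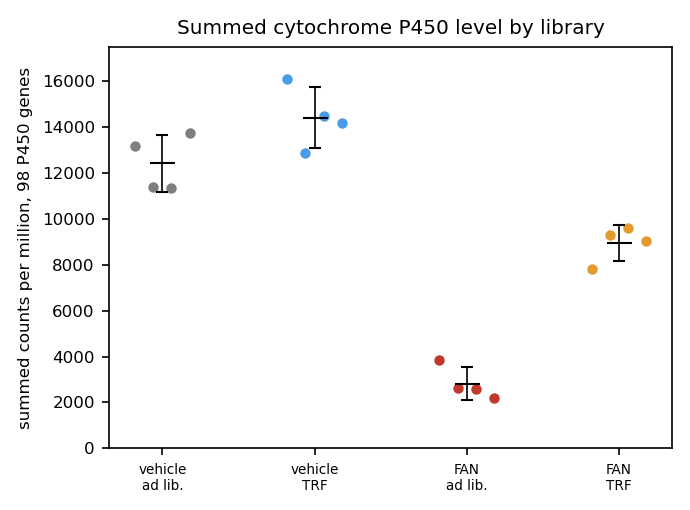
Each point is 1 library and gives the summed level of the 98 P450 genes in TMM-scaled CPM (linear axis from 0), with the mean and SD of each group in black. FAN ad libitum libraries sit lowest, at 2195 to 3863, and FAN time-restricted libraries, at 7836 to 9628, lie between them and the vehicle libraries; TRF stands for time-restricted feeding.

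A few genes made up most of this RNA. Cyp4b1, Cyp2j5, Cyp2e1 and Cyp2a4 held 71.5 ± 2.49% (SD, n = 4) of P450 counts in vehicle ad libitum and 61.7 ± 2.97% in FAN ad libitum. Per kilobase of the longest protein-coding transcript, Cyp4b1 was the most abundant member in vehicle ad libitum at 1756 ± 298 CPM per kb (SD, n = 4). Cyp2e1 at 1004 ± 161, Cyp2j5 at 935 ± 80.4 and Cyp2a4 at 878 ± 78.6 CPM per kb followed, with SDs wide enough that these neighbours in the order were not separated. The next step down was large, to 209 ± 49.8 CPM per kb for Cyp4a10 and 206 ± 44.7 for Cyp4a31. The same 4 genes led the order, in the same sequence, in each of the other groups, at 277 ± 126, 246 ± 143, 243 ± 48.7 and 117 ± 14.8 CPM per kb in FAN ad libitum. There too the first 3 lay within their SDs of each other.

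Under ad libitum feeding, FAN kidneys had lower levels of 30 of the 49 tested members (adjusted p under 0.05) and higher levels of 8, with 11 not past the threshold. Over all genes tested, 28.6% were lower and 32.1% higher in this comparison. All changes below are log2 values, with their SE where given, from edgeR's quasi-likelihood test. The median log2 change was -1.74 for the members and 0.06 for all genes. The libraries of the groups did not overlap for 28 of the 30 lower members and for all 8 higher ones. Among all called genes this was so for 88% of those lower and 86.7% of those higher. No call among these 38 was lost when any 1 library was left out. When libraries were scaled by their totals alone, the median of all genes moved to 0.76 and higher members made up 33.3% of those called, against 21.1% here.

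With time-restricted feeding on both sides, FAN kidneys were lower in 16 members and higher in 8, and 25 did not pass. Among all genes, 19% were lower and 24.5% higher. The members' median log2 change was -0.45, against 0.05 over all genes. Of the 30 members lower under ad libitum feeding, 16 were lower here too and 14 did not pass. The matching share over all genes lower under ad libitum feeding was not counted, so these numbers are not particular to the members. With the number range as a covariate, 9 members were lower and 4 higher, and in the lowest range alone 9 were lower and 5 higher, with FAN time-restricted reduced to 1 library. With the number range as a covariate, higher genes made up 60.8% of all called genes and 30.8% of called members. The 2 comparisons share no library.

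**Figure D2:**
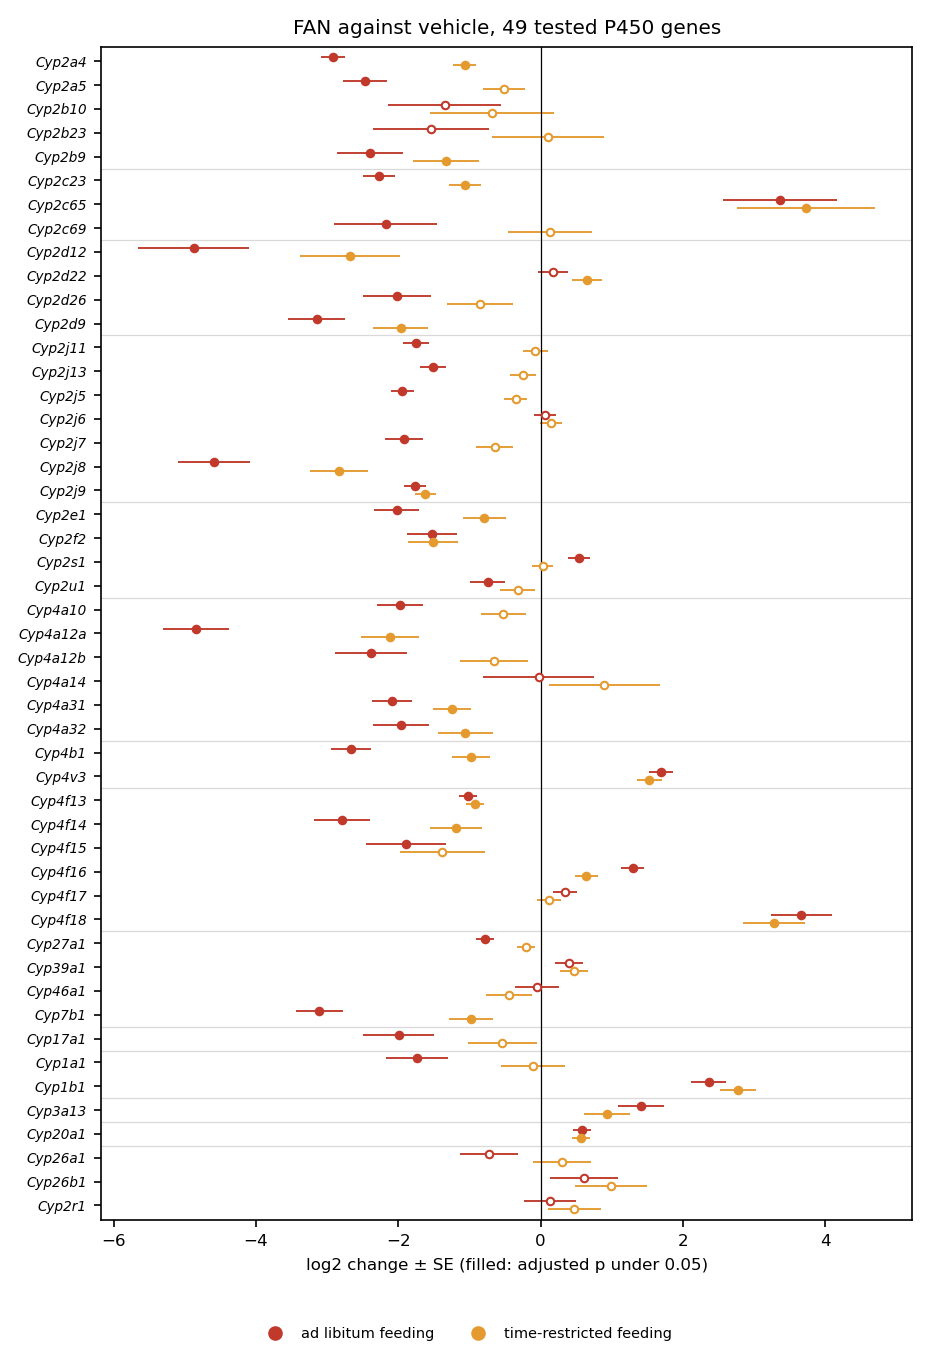
Log2 change ± SE of FAN against vehicle for the 49 tested P450 genes, in order of subfamily or role, with ad libitum feeding in red and time-restricted feeding in orange; filled points passed adjusted p 0.05. Most red points lie between -1 and -5, and the orange points of the same genes mostly lie nearer to 0.

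Cyp4b1 and Cyp2e1 lead the group. Cyp4b1 hydroxylates fatty acids and activates aromatic amines in kidney and lung. Its level was 4009, 3125, 2675 and 3481 CPM in the 4 vehicle ad libitum libraries and 4909.6, 2378, 3008 and 3430.2 in the vehicle time-restricted ones. It was 860.1, 512, 419 and 309 CPM in FAN ad libitum and 1448, 1709, 1709 and 2118 in FAN time-restricted. All FAN libraries were below all vehicle libraries, and FAN ad libitum lay below FAN time-restricted without overlap. The log2 change with FAN was -2.66 ± 0.28 (adjusted p = 2.54e-07) under ad libitum and -0.97 ± 0.27 (adjusted p = 0.00688) under time-restricted feeding. The second call did not pass with the number range as a covariate, at -0.73 (adjusted p = 0.168).

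Cyp2e1 oxidises ethanol, acetone and small solvents. Its levels were 1953, 1425, 1867 and 2115 CPM in vehicle ad libitum and 781, 546, 245 and 235 CPM in FAN ad libitum. With time-restricted feeding they were 3722, 2089, 2492 and 2715 CPM in vehicle and 1582, 1602, 1675 and 1513 CPM in FAN libraries. The last group was tight, with an SD of 66.5 around a mean of 1593 CPM, whereas FAN ad libitum was split into libraries 6 and 7 of the lowest number range, at 781 and 546 CPM, and libraries 10 and 12, at 245 and 235. With FAN, the log2 change of Cyp2e1 was -2.03 ± 0.31 (adjusted p = 1.98e-05) under ad libitum feeding. Under time-restricted feeding the change was -0.79 ± 0.30 (adjusted p = 0.0406), and this call was lost without any of 7 libraries (each of FAN time-restricted, and vehicle time-restricted 1, 3 or 4), with adjusted p of 0.0504 to 0.135, and with the number range as a covariate, at -0.058. Of the other Cyp2 genes outside the large subfamilies, Cyp2f2, known from airway cells, was at 3.61 ± 0.242 CPM in vehicle ad libitum and 1.30 ± 0.952 in FAN ad libitum, and was lower under both regimens (-1.52 and -1.51). Cyp2u1, a fatty acid hydroxylase, was lower under ad libitum feeding (-0.75, adjusted p = 0.0128) and did not pass under time-restricted feeding (-0.32). Both genes overlap a transcript on the other strand, Gm15883 for Cyp2f2, whose reads may be mixed in.

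Cyp2a4 and Cyp2a5 are near-identical genes on chromosome 7 that hydroxylate testosterone and coumarin, respectively. In GRCm38 Cyp2a4 (ENSMUSG00000074254) spans chr7:26307169-26315088 and Cyp2a5 (ENSMUSG00000005547) chr7:26835305-26843548, both on the plus strand. Of all 50-base words in their transcripts, 38.0% and 37.0% also occur in other genes, so their split is uncertain. Their upstream sequences are shown because both genes fell under ad libitum feeding. They come from RefSeq (GRCm38.p6), chr7:26306942-26307168 for Cyp2a4 and chr7:26835089-26835304 for Cyp2a5, plus strand, 5′ to 3′, cut before the gene's annotated start, with capitals at the bases where they differ.
Cyp2a4: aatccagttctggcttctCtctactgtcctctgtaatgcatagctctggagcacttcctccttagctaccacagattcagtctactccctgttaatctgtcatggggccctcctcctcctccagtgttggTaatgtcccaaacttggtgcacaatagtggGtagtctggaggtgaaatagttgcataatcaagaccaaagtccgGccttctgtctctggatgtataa
Cyp2a5: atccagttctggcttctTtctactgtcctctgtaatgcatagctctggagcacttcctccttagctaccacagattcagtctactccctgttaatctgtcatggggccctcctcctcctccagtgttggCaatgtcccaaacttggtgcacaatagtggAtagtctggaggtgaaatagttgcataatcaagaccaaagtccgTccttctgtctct
Over 216 aligned bases, offset by 1, they differ at 4: C19T, T131C, G161A and G205T, counted from the first base of the Cyp2a4 sequence, with the Cyp2a4 base first.

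Both genes fell after FAN under ad libitum feeding. Cyp2a4 was at 1546, 1479, 1377 and 1703 CPM in vehicle ad libitum and 226, 191, 172 and 221 in FAN ad libitum, a log2 change of -2.91 ± 0.17 (adjusted p = 2.7e-10). In FAN time-restricted it was at 785, 577, 733 and 765 CPM, below the vehicle time-restricted libraries at 1116, 1676, 1769 and 1431. The 4 FAN ad libitum values were close together and lay far below the lowest FAN time-restricted value. Cyp2a5 was at 356 ± 130.4 CPM (SD, n = 4) in vehicle ad libitum and 64.1 ± 24.1 in FAN ad libitum, a change of -2.47 ± 0.31 (adjusted p = 2.26e-06). At 251 ± 51.4 CPM in FAN time-restricted and 359.6 ± 104 in vehicle time-restricted, its groups overlapped and the test did not pass (adjusted p = 0.164). With reads of all Cyp2a genes summed before the fit, which removes the question of the split within the pair, the changes were -2.82 ± 0.18 (adjusted p = 5.27e-10) and -0.94 ± 0.17 (adjusted p = 0.000183). Of the related Cyp2b genes, best known as drug-induced liver enzymes, only Cyp2b9 passed, at -2.40 under ad libitum and -1.33 under time-restricted feeding, from 2.09 ± 0.658 CPM in vehicle ad libitum. The second of these was lost without FAN time-restricted 10 or vehicle time-restricted 3 (adjusted p = 0.0736 and 0.0687). Cyp2b10 and Cyp2b23 did not pass in any comparison.

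The Cyp2j genes form a cluster on chromosome 4, all on the minus strand, from Cyp2j13 at chr4:96027534-96077546 to Cyp2j5 at chr4:96628773-96664154 in GRCm38. Cyp2j5 is an arachidonic acid epoxygenase that is abundant in kidney. Of 7 tested Cyp2j genes, 6 were lower after FAN under ad libitum feeding and 2 under time-restricted feeding. Over all genes, 28.6% and 19% were lower in these comparisons. Cyp2j5 was at 2401, 1977, 2106 and 2290.0 CPM in vehicle ad libitum and 621, 435, 699 and 529.6 in FAN ad libitum, without overlap, a log2 change of -1.94 ± 0.17 (adjusted p = 2.14e-08). With time-restricted feeding it was at 2218, 1649, 1985 and 2433 CPM in vehicle and 1718, 1500.1, 1472 and 1800.3 in FAN libraries. These groups overlapped, and the change of -0.35 did not pass (adjusted p = 0.0887), though it did by DESeq2 (adjusted p = 0.0296).

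Cyp2j9, whose gene lies between those of Cyp2j6 and Cyp2j5, fell under both regimens. It was at 37.6, 30.3, 38.4 and 30.8 CPM in vehicle ad libitum, 10.6, 8.41, 11.7 and 9.75 in FAN ad libitum, 74.3, 65.9, 48.2 and 82.2 in vehicle time-restricted and 21.3, 24.6, 19.8 and 22.3 in FAN time-restricted. The 4 groups did not overlap at all, and their order was vehicle time-restricted, vehicle ad libitum, FAN time-restricted, FAN ad libitum. The changes with FAN were -1.76 ± 0.16 (adjusted p = 2.72e-08) and -1.62 ± 0.15 (adjusted p = 2.67e-07). Cyp2j6, next to it, was at 68.4, 58.9, 67.1 and 61.5 CPM in vehicle ad libitum and 55.7, 48.2, 91.5 and 72.7 in FAN ad libitum. The FAN values straddled the vehicle values, and neither FAN comparison passed (log2 0.066, adjusted p = 0.734, and 0.15, adjusted p = 0.456). The scarce Cyp2j8 had the steepest fall of the cluster, from 1.51 ± 0.417 to 0.0712 ± 0.0844 CPM, below the 3-count limit in 3 of the 4 FAN ad libitum libraries. Cyp2j11, Cyp2j13 and Cyp2j7 fell, with log2 changes of -1.75, -1.51 and -1.92 under ad libitum feeding and did not pass under time-restricted feeding.

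Upstream sequences of Cyp2j5, Cyp2j6 and Cyp2j9 are shown as neighbours whose values are given above, from RefSeq (GRCm38.p6), minus strand, 5′ to 3′, at chr4:96664155-96664369, chr4:96553662-96553901 and chr4:96591579-96591735. Capitals mark AGGTCA, the single hexamer bound by many nuclear receptors, or its reverse complement.
Cyp2j5: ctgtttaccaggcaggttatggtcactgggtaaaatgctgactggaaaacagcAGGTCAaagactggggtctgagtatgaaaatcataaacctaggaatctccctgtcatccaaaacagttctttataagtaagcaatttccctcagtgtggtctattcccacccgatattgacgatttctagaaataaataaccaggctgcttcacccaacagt
Cyp2j6: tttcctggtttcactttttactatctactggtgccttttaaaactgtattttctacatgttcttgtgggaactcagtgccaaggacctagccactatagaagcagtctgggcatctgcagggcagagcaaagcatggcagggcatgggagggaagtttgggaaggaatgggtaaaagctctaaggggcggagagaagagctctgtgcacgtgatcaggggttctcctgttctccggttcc
Cyp2j9: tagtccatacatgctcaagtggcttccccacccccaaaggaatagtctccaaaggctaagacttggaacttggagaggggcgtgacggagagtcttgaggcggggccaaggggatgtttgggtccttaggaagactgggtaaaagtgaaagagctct
The hexamer occurs once in the Cyp2j5 sequence and not in the other sequences shown. Among 32851 RefSeq promoters, read over the 250 bases before the start on both strands, 14.0% hold AGGTCA. So do 4 of the 35 tested members with a promoter in the table. A member counts once if any of its promoters matches, whereas the shares of all count each promoter. Searches of the same windows for CAAAGTCCA, an HNF4 site, found 2 of the 35 (Cyp2c65 and Cyp2c69, against 0.384% of all promoters). Among the 35, the DR1 element, a spaced pair of such hexamers that can overlap the single one, was found upstream of Cyp2d9 alone (0.338% of all). It also lay upstream of Cyp2d10 and Cyp2d40, which were not tested. None of the 35 held TTATGTAA or TTACGTAA, sites of the Dbp, Tef and Hlf factors (0.931% of all), or the HNF1 palindrome (0.0335%). None held TNGCGTG, a site of the aryl hydrocarbon receptor (4.10%). Tested members with no promoter among these, such as Cyp4a10, Cyp4a12a, Cyp4a14, Cyp4a31, Cyp7b1, Cyp2c23 and Cyp2d12, were not searched. The letters TATAAA, read on the gene's own strand, were found in 6 of the 35, including Cyp2a4, Cyp2a5 and Cyp2e1, against 7.59% of all promoters. A match describes letters only.

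**Figure D3:**
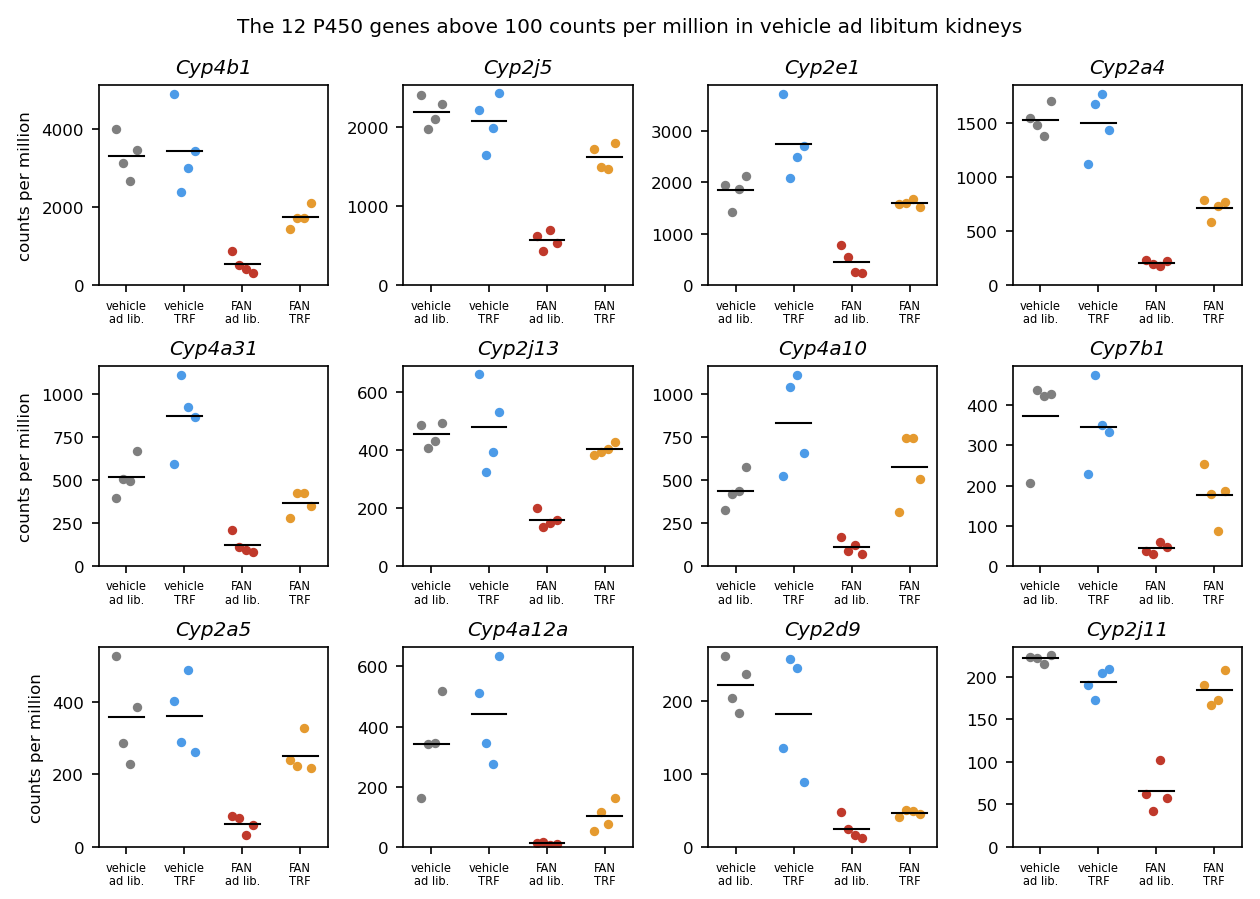
Level in each library, in CPM (linear axes from 0), of the 12 P450 genes above 100 in vehicle ad libitum kidneys, with the group mean as a line. In every panel the FAN ad libitum libraries lie below all vehicle ad libitum libraries, while the FAN time-restricted libraries of Cyp2j5, Cyp2j11, Cyp2j13, Cyp2a5, Cyp4a10 and Cyp7b1 overlap those of vehicle time-restricted.

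The Cyp4a genes are fatty acid hydroxylases long known as targets of the fasting receptor PPAR-alpha. The 6 that were tested lie together on chromosome 4 from Cyp4a12a at chr4:115299046-115332815 to Cyp4a32 at chr4:115600969-115621602 (GRCm38). Of these 6 genes, 5 were lower after FAN under ad libitum feeding and 3 under time-restricted feeding, against 28.6% and 19% of all genes. Cyp4a12a, an arachidonic acid hydroxylase of male mouse kidney, was at 162, 341, 346 and 518 CPM in vehicle ad libitum and 12.5, 17.3, 6.70 and 10.9 in FAN ad libitum. It was at 512, 345, 275 and 633 CPM in vehicle time-restricted and 51.8, 118, 74.5 and 163 in FAN time-restricted. Neither pair of groups overlapped, and the changes were -4.84 ± 0.46 (adjusted p = 2.14e-07) and -2.12 ± 0.41 (adjusted p = 0.000605). Its copy Cyp4a12b, with which it shares 48.9% of its 50-base words, went from 23.3 ± 9.85 to 4.52 ± 2.60 CPM under ad libitum feeding, a change of -2.39.

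Cyp4a10 and Cyp4a31, with 29.8% and 20.6% of words shared with other genes, fell, with log2 changes of -1.98 and -2.09 under ad libitum feeding. With time-restricted feeding Cyp4a31 was still lower (-1.24), whereas Cyp4a10 did not pass (-0.53, adjusted p = 0.189). Cyp4a32, with 43.8% of words shared with other genes, was lower under both, at -1.96 and -1.06. The second of these calls was lost without FAN time-restricted 10, 11 or 12 or vehicle time-restricted 1 or 4, at adjusted p of 0.0574 to 0.1101.

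The remaining Cyp4a gene, Cyp4a14, is strongly induced by fasting in liver. It was at 59.4, 53.2, 72.7 and 146 CPM in vehicle ad libitum, 179, 52.4, 63.04 and 29.4 in FAN ad libitum, 277, 479.8, 569 and 77.8 in vehicle time-restricted and 109.7, 1053, 1177 and 274 in FAN time-restricted. Within FAN time-restricted, libraries 10 and 11 were far above libraries 6 and 12. The groups overlapped in each comparison, and FAN gave log2 changes of -0.030 and 0.90 that did not pass. Only 0.235% of its words are shared, so few of its reads can be shared with another gene. Summed over all Cyp4a genes, the changes with FAN were -2.09 ± 0.37 (adjusted p = 9.49e-05) under ad libitum and -0.56 ± 0.35 (adjusted p = 0.218) under time-restricted feeding.

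Among Cyp2c genes, Cyp2c23 is the kidney's arachidonic acid epoxygenase. It was at 50.2, 27.3, 29.1 and 36.1 CPM in vehicle ad libitum and 9.78, 7.73, 6.58 and 5.34 in FAN ad libitum, a change of -2.27 ± 0.23 (adjusted p = 1.09e-07). At 9.53, 11.7, 14.4 and 11.3 CPM in FAN time-restricted it lay below all vehicle time-restricted libraries, at 18.97, 26.7, 31.7 and 20.5, a change of -1.06 ± 0.22 (adjusted p = 0.000843). The groups were apart in both comparisons. Cyp2c65 and Cyp2c69 were under 1 CPM in every library. Cyp2c65 was higher after FAN. However, 5 of its 8 vehicle libraries were at 0, with group means of 0.0408 and 0.0177 CPM, below the detection limit. Cyp2c69, with 54.3% of words shared with other genes, was lower under ad libitum feeding (-2.18).

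The Cyp2d genes split. Of the words of Cyp2d9, 21.8% are shared with other genes, and its exons overlap those of Gm27622 and Gm46501. Cyp2d9, a male-biased testosterone hydroxylase, was at 262, 204, 184 and 238 CPM in vehicle ad libitum and 48.01, 24.2, 15.97 and 11.7 in FAN ad libitum, a change of -3.15 ± 0.40 (adjusted p = 6.03e-06). Under time-restricted feeding it went from 135, 258, 246 and 88.6 to 41.1, 51.05, 49.2 and 45.3 CPM, a change of -1.97 ± 0.39 (adjusted p = 0.000751). Cyp2d12 fell further, from 126, 76.6, 81.8 and 80.7 to 7.04, 3.69, 0.828 and 0.413 CPM (log2 -4.88 ± 0.78, adjusted p = 0.000106), and time-restricted FAN libraries held 9.38, 8.44, 29.6 and 9.57 CPM. With the number range as a covariate, neither gene passed under time-restricted feeding (adjusted p = 0.0682 for Cyp2d9 and 0.370 for Cyp2d12). Cyp2d26 fell under ad libitum feeding (-2.02) and did not pass under time-restricted feeding (-0.85, adjusted p = 0.152). Cyp2d22, by contrast, did not pass there (0.17) and was higher under time-restricted feeding (0.65, adjusted p = 0.0198). That call was lost without FAN time-restricted 10 or 11 or vehicle time-restricted 4 (adjusted p of 0.0653 to 0.106) and the change was -0.092 in the lowest range alone.

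Of the Cyp4f genes, which hydroxylate leukotrienes and long-chain fatty acids, 3 fell, 2 rose and 1 did not pass under ad libitum feeding. Among all genes, 28.6% were lower and 32.1% higher in that comparison. Cyp4f13 was at 40.02, 41.6, 42.3 and 42.6 CPM in vehicle ad libitum, 24.4, 21.5, 18.1 and 17.7 in FAN ad libitum, 46.5, 50.5, 45.8 and 35.8 in vehicle time-restricted and 22.8, 24.5, 25.8 and 21.3 in FAN time-restricted. Every FAN library was below every vehicle library, and the changes were -1.03 ± 0.12 (adjusted p = 1.3e-06) and -0.92 ± 0.13 (adjusted p = 1.4e-05). Cyp4f17 did not pass under either regimen. Cyp4f14 fell from 1.25 ± 0.279 to 0.186 ± 0.126 CPM and Cyp4f15 from 3.43 ± 0.875 to 0.905 ± 0.888 CPM (adjusted p = 7.76e-06 and 0.00728).

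Among enzymes of sterol and bile acid metabolism, Cyp7b1, which hydroxylates oxysterols and steroids, fell most. Its levels were 206, 438, 423 and 429 CPM in vehicle ad libitum, 36.9, 30.5, 58.7 and 47.5 in FAN ad libitum, 229, 476, 350.3 and 333 in vehicle time-restricted and 253, 179.7, 86.4 and 186 in FAN time-restricted. The ad libitum groups did not overlap, and the time-restricted groups did, FAN time-restricted 6 lying above vehicle time-restricted 1. FAN changed it by -3.11 ± 0.33 (adjusted p = 4.29e-07) and -0.98 ± 0.31 (adjusted p = 0.0169), and the second call was lost without vehicle time-restricted 2 (adjusted p = 0.0582). Cyp27a1, the mitochondrial sterol hydroxylase, fell less, from 53.6 ± 6.01 to 31.1 ± 3.45 CPM (log2 -0.78 ± 0.13, adjusted p = 3.65e-05). Scaled by library totals alone that change was -0.080 and did not pass. Cyp39a1 and Cyp46a1, which act on oxysterols and cholesterol, did not pass under either regimen. Neither did any tested gene of retinoic acid breakdown or vitamin D activation (Cyp26a1, Cyp26b1 and Cyp2r1), all with group means under 5 CPM. Cyp17a1, the only tested gene of steroid hormone synthesis, went from 0.491 ± 0.108 to 0.121 ± 0.0465 CPM under ad libitum feeding (-2.00).

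A smaller set rose after FAN. Cyp1b1, which acts on oestrogens, retinoids and polycyclic hydrocarbons and is found mostly in stromal cells, was at 15.4, 25.03, 8.68 and 11.98 CPM in vehicle ad libitum and 67.1, 75.3, 86.9 and 87.1 in FAN ad libitum. It was at 10.1, 14.1, 15.9 and 10.3 CPM in vehicle time-restricted and 82.1, 95.97, 95.3 and 73.04 in FAN time-restricted. The lowest FAN library, at 67.1 CPM, was above the highest vehicle library, at 25.0 CPM. The changes were 2.36 ± 0.24 (adjusted p = 2.22e-07) and 2.78 ± 0.25 (adjusted p = 1.8e-07). The other tested Cyp1 gene, Cyp1a1, went the opposite way under ad libitum feeding, from 1.37 ± 0.781 to 0.408 ± 0.119 CPM (log2 -1.74 ± 0.43, adjusted p = 0.00189).

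Cyp4f18, a leukotriene hydroxylase of leukocytes, was at 0.706, 0.491, 0.288 and 0.442 CPM in vehicle ad libitum and 5.38, 5.78, 6.70 and 7.43 in FAN ad libitum, a change of 3.67 ± 0.43 (adjusted p = 7.78e-07). Under time-restricted feeding it was at 0.635, 0.390, 0.765 and 0 and 2.92, 5.12, 7.35 and 3.44 CPM, a change of 3.28 ± 0.43 (adjusted p = 1e-05). Its exons overlap those of Zfp961 on the other strand, and the strand setting of the counting is not given, so the reads of these genes may be mixed. Cyp4v3, a fatty acid hydroxylase, rose from 5.05 ± 0.982 to 16.4 ± 1.74 CPM under ad libitum (log2 1.69 ± 0.17, adjusted p = 1.25e-07) and from 5.28 ± 0.856 to 15.2 ± 2.40 under time-restricted feeding (log2 1.53 ± 0.17, adjusted p = 1.58e-06). Cyp4f16 rose by a log2 change of 1.29 and 0.64, and Cyp20a1, a P450 of unknown substrate, by 0.58 and 0.57. Cyp3a13, the only Cyp3a gene with enough reads, rose by a log2 change of 1.41 and 0.93. The second of these was lost without FAN time-restricted 6 or 11 or vehicle time-restricted 2 or 3 (adjusted p of 0.0687 to 0.108). Cyp2s1 rose under ad libitum feeding (log2 0.54 ± 0.15, adjusted p = 0.00491) and did not pass under time-restricted feeding (0.027, adjusted p = 0.902). Of the 8 members higher under ad libitum feeding, 7 were higher under time-restricted feeding too. The matching share over all genes higher under ad libitum feeding was not counted.

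Over all genes tested, 32.1% were higher after FAN under ad libitum and 24.5% under time-restricted feeding. Beside the rises above, 6 of 6 macrophage markers were higher under ad libitum and 5 of 6 under time-restricted feeding. Their sum was 95.1 to 190 CPM over the vehicle libraries, 1280 to 2141 CPM in FAN ad libitum and 650 to 1279 CPM with time-restricted feeding. Fibroblast and pericyte markers, of which 4 of 5 were higher under each regimen, summed to 91.2 to 205 CPM over the vehicle libraries, 361 to 662 CPM in FAN ad libitum and 247 to 379 CPM with time-restricted feeding. Of 5 neutrophil markers all were higher under each regimen, with sums of 0.762 to 4.35 CPM over the vehicle libraries and 6.505 to 29.7 CPM over the FAN libraries. No marker of these lists was at 0 in every library of a group. Their part in the rises was not tested.

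**Figure D4:**
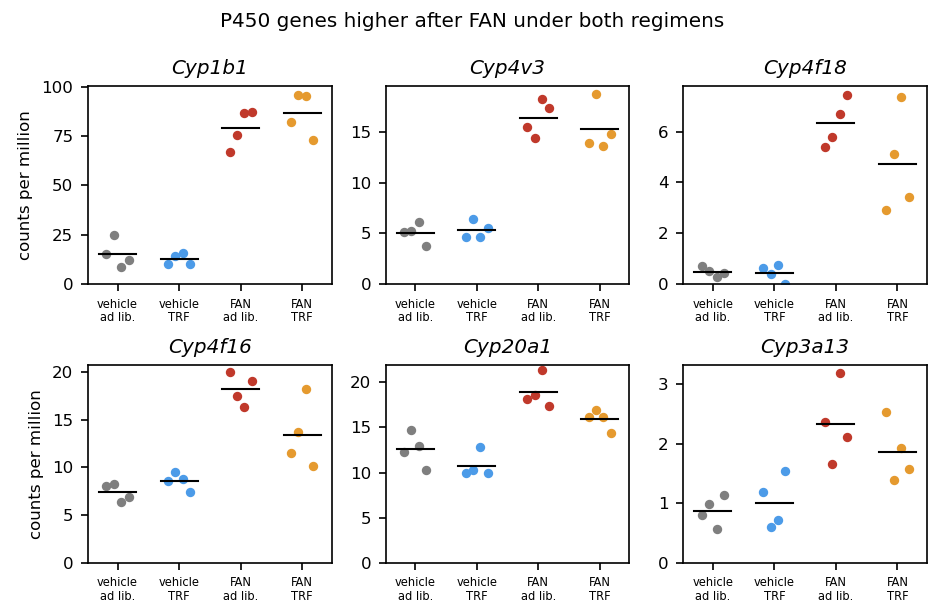
Level in each library, in CPM (linear axes from 0), of 6 P450 genes that were higher after FAN under both regimens, with the group mean as a line. Cyp1b1, Cyp4v3, Cyp4f18, Cyp4f16 and Cyp20a1 show every FAN library above every vehicle library of the same regimen, whereas for Cyp3a13 the time-restricted groups overlap.

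Within FAN mice, time-restricted feeding went with higher P450 levels. Of the 49 tested members 25 were higher and 1 was lower than under ad libitum feeding, and over all genes tested 17.9% were higher and 13.9% lower. The groups did not overlap for 18 of the 25, and for 81.3% of all genes called higher. The members' median log2 change was 0.90, against -0.02 over all genes. Scaled by library totals alone, the median of all genes became -0.67 and higher members made up 66.7% of those called, against 96.2% here, with 18 higher and 9 lower. In the libraries of the lowest range alone, with 1 FAN time-restricted library, 13 were higher and 2 lower, and in the higher FAN range alone 19 were higher and none lower. Proximal tubule markers moved with the members, 10 of 12 being higher, while 5 of 6 macrophage and 4 of 5 fibroblast and pericyte markers were lower. Their part was not tested.

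All 7 tested Cyp2j genes and all 6 tested Cyp4a genes were among the 25. Cyp4a12a differed most among the abundant members, by a log2 of 3.09 ± 0.43 (adjusted p = 6.4e-05). Cyp4a10 was higher by 2.38 ± 0.33 (adjusted p = 4.24e-05), Cyp7b1 by 2.02 ± 0.32 (adjusted p = 0.000158), Cyp2a5 by 1.97 ± 0.30 (adjusted p = 0.00012), Cyp2a4 by 1.82 ± 0.16 (adjusted p = 4.19e-07) and Cyp2e1 by 1.82 ± 0.31 (adjusted p = 0.000259). Cyp4b1 and Cyp2j5 followed at 1.73 ± 0.27 (adjusted p = 0.000128) and 1.51 ± 0.17 (adjusted p = 3.01e-06). None of these 8 overlapped between the feeding groups. The scarce Cyp2j8 and Cyp2c69 changed by 2.92 and 2.93 from levels at or below the 3-count limit in most FAN ad libitum libraries.

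Cyp4a14 was higher by 3.01 ± 0.84 (adjusted p = 0.0149), but its groups overlapped, it did not pass once FAN ad libitum 7 was left out (adjusted p = 0.0531), and in the lowest range the change was -0.12. Cyp2j6 was higher by a log2 of only 0.42 (adjusted p = 0.0448). It did not pass without any of 11 libraries (all but FAN ad libitum 10 and 12 and vehicle time-restricted 2, 3 and 4), at adjusted p of 0.0511 to 0.153, nor by DESeq2, and was at -0.21 when scaled by library totals. The single member lower with time-restricted feeding was Cyp4f16, one of those that rose with FAN: 20.02, 17.5, 16.3 and 19.01 CPM in FAN ad libitum and 11.5, 13.6, 18.2 and 10.1 in FAN time-restricted, overlapping, at -0.44 ± 0.16 (adjusted p = 0.0433). That call was lost without any of 11 libraries (all but FAN ad libitum 10, FAN time-restricted 11, vehicle ad libitum 3 and vehicle time-restricted 2 and 4), at adjusted p of 0.0507 to 0.140.

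A further 5 of the 25 higher calls were lost when 1 library was left out. Cyp2c23 (0.67) was lost without FAN ad libitum 7, 10 or 12 or FAN time-restricted 10 or 11, at adjusted p of 0.0521 to 0.0986. Cyp2d12 (2.21) was lost without FAN ad libitum 7, 10 or 12 or FAN time-restricted 11 (0.0561 to 0.128). Cyp2d26 (1.42) was lost without FAN ad libitum 7 or FAN time-restricted 10, 11 or 12 (0.0601 to 0.0899). Cyp4a32 (1.13) was lost without FAN ad libitum 7 or 12 or FAN time-restricted 6, 11 or 12 (0.0556 to 0.161). Cyp17a1 (1.52) was lost without FAN ad libitum 6 or 12 or FAN time-restricted 6 or 10 (0.0662 to 0.249).

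In vehicle mice, no member passed in either direction by edgeR's test, as was so for every gene tested (0.0% higher and 0.0% lower). At an unadjusted p under 0.05 there were 7 of the 49 tested members, against 6.45% of all genes. DESeq2 called 1 member higher and 0 lower, against 0.249% and 0.0867% of the genes it gave an adjusted p. That gene was Cyp2j9, whose vehicle groups did not overlap: 37.6, 30.3, 38.4 and 30.8 CPM under ad libitum and 74.3, 65.9, 48.2 and 82.2 under time-restricted feeding, a log2 difference of 0.98 ± 0.15 (adjusted p = 0.0736) by edgeR, with adjusted p of 2.27e-05 by DESeq2 and 0.0049 when no genes were filtered out. The Cyp4a genes also lay higher in their means, Cyp4a14 at 82.9 ± 42.99 and 351 ± 219 CPM and Cyp4a10 at 439.8 ± 105 and 834 ± 289, with adjusted p of 0.704 and 0.596. For all Cyp4a genes summed the difference was 0.85 ± 0.35 (adjusted p = 0.728).

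**Figure D5:**
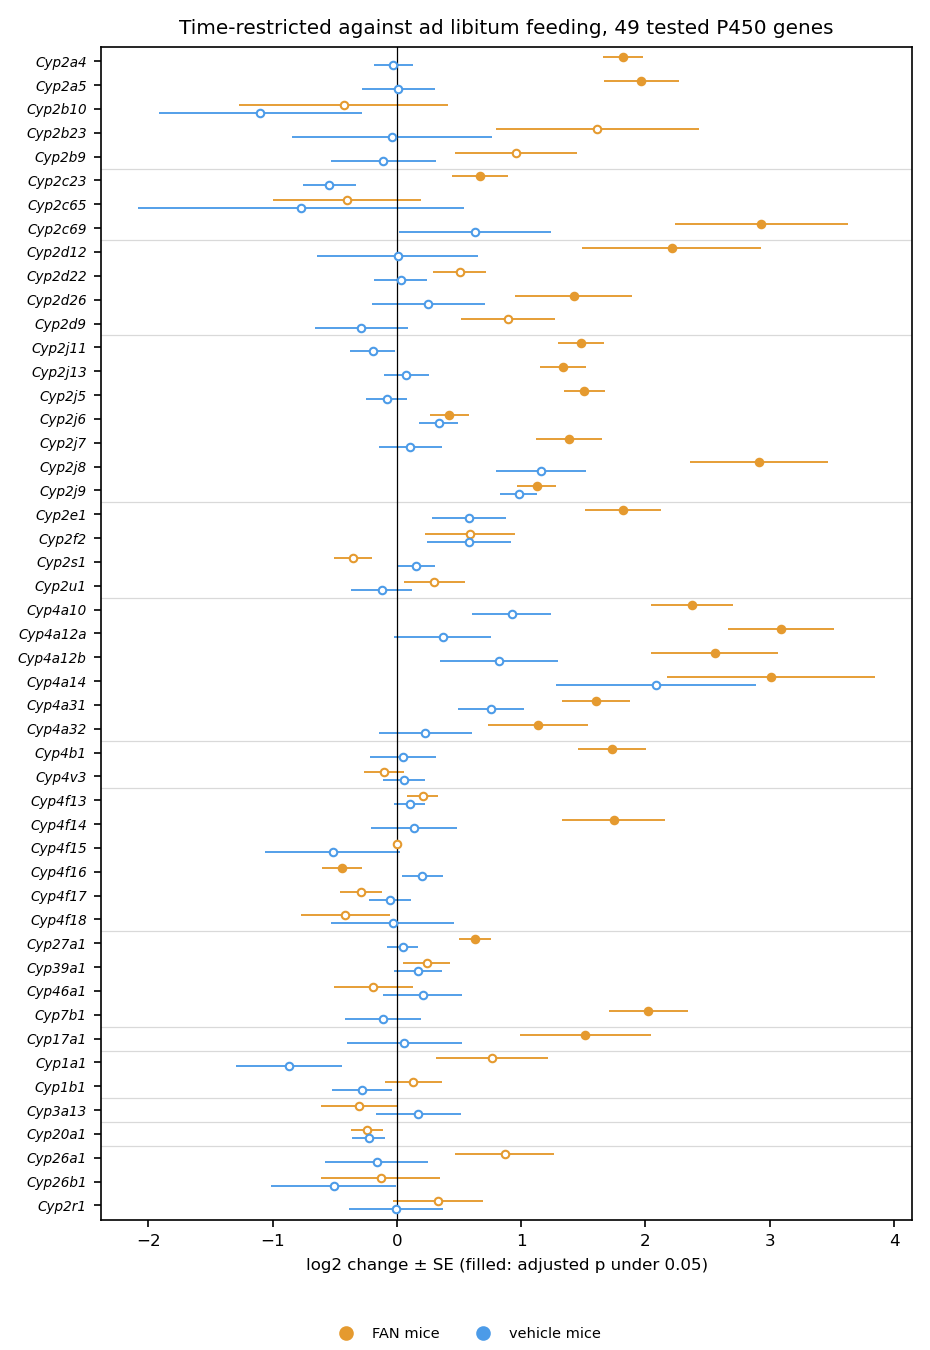
Log2 difference ± SE of time-restricted against ad libitum feeding for the 49 tested P450 genes, in FAN mice (orange) and vehicle mice (blue); filled points passed adjusted p 0.05. Orange points of most Cyp2 and Cyp4a genes lie right of 0, and no blue point is filled; Cyp4f15 in FAN mice has no bar because its difference is too close to 0 for the SE to be derived from the test statistic.

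The interaction asks whether the difference between feeding regimens was larger in FAN than in vehicle mice. It was positive and past the threshold for 12 of the 49 members and negative for none, against 7.76% and 1.4% of all genes. At an unadjusted p under 0.05 there were 23 of the 49 tested members, against 23.9% of all genes. DESeq2 called 14 members positive and 1 negative, against 9.14% and 3.36% of the genes it gave an adjusted p. Scaled by library totals alone, 8 were positive and 5 negative (61.5% positive, against 100% here), with a median of all genes of -0.57 in place of 0.02. In the lowest range alone 4 were positive. The firmest were Cyp2a4 at 1.85 ± 0.23 (adjusted p = 7.52e-05), Cyp2j5 at 1.59 ± 0.23 (adjusted p = 0.000286) and Cyp2j11 at 1.68 ± 0.26 (adjusted p = 0.00046). Cyp2j13, Cyp7b1, Cyp2a5, Cyp4a12a, Cyp4b1 and Cyp2c23 also passed, at 1.26, 2.13, 1.95, 2.72, 1.69 and 1.21. Cyp2j9 did not (0.14, adjusted p = 0.73), and it differed between regimens by 1.12 in FAN and 0.98 in vehicle mice.

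The other positive calls were close to the threshold. Cyp27a1 (log2 0.58 ± 0.18, adjusted p = 0.0498) was lost without any of 13 libraries (all but FAN ad libitum 7, FAN time-restricted 6 and vehicle time-restricted 1), at adjusted p of 0.0522 to 0.108. Cyp4a10 (log2 1.46 ± 0.45, adjusted p = 0.0493) was lost without any of 12 (all but FAN ad libitum 6, FAN time-restricted 6, vehicle ad libitum 1 and vehicle time-restricted 3), at 0.0507 to 0.111. Cyp2j7 (log2 1.28 ± 0.37, adjusted p = 0.0356) was lost without any of 11 (all but FAN ad libitum 10 and 12, FAN time-restricted 12, vehicle ad libitum 2 and vehicle time-restricted 4), at 0.0523 to 0.0835. Cyp2e1, at 1.24 ± 0.42 (adjusted p = 0.0768), did not pass, but did with the number range as a covariate (1.65, adjusted p = 0.00956).

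Genes that serve P450 enzymes were counted in the same way, against 28.6% of all genes lower after FAN under ad libitum feeding, 19% lower under time-restricted feeding and 17.9% higher with time-restricted feeding in FAN mice. Of 10 electron donors and related proteins, 8 were lower after FAN under ad libitum feeding and 6 under time-restricted feeding, none was higher, and 5 were higher with time-restricted feeding in FAN mice. Por, the common reductase, was at 235 ± 15.6 CPM in vehicle ad libitum, 87.00 ± 27.9 in FAN ad libitum and 144 ± 14.9 in FAN time-restricted, a change with FAN of -1.43 ± 0.19 (adjusted p = 4.35e-06) under ad libitum feeding. Cyb5a, the cytochrome that hands over a second electron, changed by -2.20 ± 0.20 (adjusted p = 4.25e-08), and Fdx1, the mitochondrial ferredoxin, by -1.86 ± 0.17 (adjusted p = 3.59e-08). Of 12 genes of heme synthesis and breakdown, 11 were lower under ad libitum and 10 under time-restricted feeding, and 8 were higher with time-restricted feeding in FAN mice. Red cells also carry heme synthesis RNA, and 3 of 3 red cell markers were lower after FAN under each regimen and 2 of 3 higher with time-restricted feeding in FAN mice. They summed to 1.57 to 7.29 CPM in FAN ad libitum, 8.83 to 38.6 CPM with time-restricted feeding and 11.7 to 415 CPM over the vehicle libraries, and their part was not tested. Alas1, which sets the rate of heme synthesis, was at 165 ± 35.97 CPM in vehicle ad libitum, 80.97 ± 44.03 in FAN ad libitum and 80.8 ± 14.97 in FAN time-restricted. It changed by -1.02 ± 0.35 (adjusted p = 0.0199) with FAN and did not pass between the FAN regimens (adjusted p = 0.996). Urod, further down that pathway, changed by -1.29 ± 0.11 (adjusted p = 2.01e-08) and 0.67 ± 0.11 (adjusted p = 0.000193) in the same comparisons. The list's exception, the stress-induced heme oxygenase Hmox1, was at 34.3 CPM in vehicle ad libitum and 31.04 in FAN ad libitum (adjusted p = 0.628).

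Of 21 tested regulators known to act on P450 genes, 9 were lower and 6 higher after FAN under ad libitum feeding, against 28.6% and 32.1% of all genes. Hnf4a, the nuclear receptor that maintains liver and proximal tubule genes, went from 696 ± 57.4 to 177 ± 42.3 CPM (log2 -1.98 ± 0.16, adjusted p = 9.46e-09) and stood at 373 ± 42.1 CPM in FAN time-restricted. The clock-driven factors Tef and Hlf were lower, at -1.89 ± 0.14 (adjusted p = 2.6e-09) and -2.21 ± 0.22 (adjusted p = 1.33e-07). Nfil3 rose from 3.03 ± 0.741 to 14.4 ± 2.67 CPM (log2 2.26 ± 0.22, adjusted p = 9.42e-08). Ahr, the receptor that induces Cyp1 genes, rose by a log2 change of 1.77 ± 0.18 (adjusted p = 1.06e-07). Ppara, the inducer of Cyp4a genes, did not pass in any comparison, at 9.58 ± 3.93 CPM in vehicle ad libitum and 9.72 ± 5.33 in FAN ad libitum. Under time-restricted feeding 7 of the 21 regulators were lower and 5 higher after FAN, against 19% and 24.5% of all genes. With time-restricted feeding in FAN mice 6 were higher and 2 lower, against 17.9% and 13.9% of all genes. Nothing was tested that links these regulators to the members.

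Among 9 epoxide hydrolases and eicosanoid enzymes, 5 were higher and 1 lower after FAN under ad libitum feeding, against 32.1% and 28.6% of all genes. Under time-restricted feeding 4 were higher and 2 lower, against 24.5% and 19% of all genes. The lower one under ad libitum feeding was Ephx2, the soluble hydrolase that degrades P450 epoxides, at 755 ± 77.2 CPM in vehicle ad libitum, 183 ± 27.1 in FAN ad libitum and 580.1 ± 48.6 in FAN time-restricted. It changed by -2.05 ± 0.14 (adjusted p = 1.07e-09) with FAN and by 1.67 ± 0.14 (adjusted p = 1.98e-07) between the FAN regimens. The phospholipase Pla2g4a, which frees arachidonic acid, rose by a log2 change of 1.81 ± 0.27 (adjusted p = 1.56e-05). The cyclooxygenase gene Ptgs2 rose by a log2 change of 2.32 ± 0.36 (adjusted p = 2.39e-05), to 2.60 ± 0.589 CPM. Ptgis and Tbxas1, P450 relatives that make prostacyclin and thromboxane and carry other symbols, rose by a log2 change of 1.43 and 1.39 (adjusted p = 0.000307 and 0.000448).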

How the data were processed

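The values used were raw read counts for each gene, in a single table that the authors deposited. Per the labels' protocols, total RNA from frozen kidney powder was made into libraries with a stranded mRNA kit. FastQC 0.11.5, STAR 2.5.3a, edgeR 3.26.7 and mm10 are named in the submitters' processing notes, with no role. How reads were counted, and whether by strand, is not given in the sources used here. Vehicle columns match sample titles. FAN columns match only their group and carry the column's own number here.

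All 16 libraries were fitted together with edgeR 4.0.16 (quasi-likelihood test, TMM scaling, filterByExpr with a minimum count of 10) in R 4.3.3, with Benjamini-Hochberg adjustment over 17731 genes and a threshold of 0.05. SEs are the log2 change divided by the square root of F, and CPM are TMM-scaled. Alternatives were DESeq2 1.42.0, scaling by library totals, no filter, no mitochondrial transcripts, the range of S numbers in the column names as covariate, each library left out, and a block on replicate number; fits within those ranges were chosen after seeing the data. Counts of members from fits within those ranges are given without the share of all genes, which was not counted for them. The test was checked on simulated counts in which few genes were changed, so that check does not cover the scaling where many genes differ. Coordinates and transcript lengths are from GENCODE M21 (97 of 98 members matched). Members and lists were chosen with earlier results of these data known. Values are given for the most abundant members, those with the largest called changes each way, and those of each role. Alas1, Hmox1 and Ppara were named after their values were seen. Genes of like pattern over the libraries were not sought, because the libraries fall into clusters by treatment. One item of a list is not reported here.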

Additional observations from a re-analysis of the deposited data

Results flagged for a closer look

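A library far from the 3 others of its group occurred for 8 of the 120 groups examined (30 members with a mean of at least 5 CPM, 4 groups each); chance alone gives about 1 in 20. Vehicle ad libitum 1 was the library in 3 of them: Cyp7b1 stood at 206 CPM below the others, and Cyp2d12 at 126 and Cyp2d26 at 89.8 CPM above them. The FAN time-restricted group had Cyp2d12 high in library 11 at 29.6 CPM and Cyp2u1, a fatty acid hydroxylase, low in library 12 at 4.92 CPM. Vehicle time-restricted had Cyp20a1 high in library 3 at 12.8 CPM and Cyp2d22 low in library 4 at 12.1 CPM. In FAN ad libitum, Cyp39a1 was high in library 10 at 15.4 CPM.

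The feeding difference was larger in FAN than in vehicle mice, by the interaction test, for 12 members. The log2 interaction was 2.72 for Cyp4a12a, 2.13 for Cyp7b1, 1.95 for Cyp2a5, 1.85 for Cyp2a4, 1.69 for Cyp4b1 and 1.68 for Cyp2j11. It was 1.59 for Cyp2j5, 1.46 for Cyp4a10, 1.28 for Cyp2j7, 1.26 for Cyp2j13, 1.21 for Cyp2c23 and 0.58 for Cyp27a1.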

How the results depend on the processing

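Counts of members are given against 8 higher and 30 lower (FAN, ad libitum), 8 and 16 (FAN, time-restricted), 25 and 1 (feeding in FAN mice), 0 and 0 (feeding in vehicle mice) and 12 and 0 (interaction). Library-total scaling gave 13 higher for FAN under ad libitum, 9 lower for feeding in FAN mice and 5 lower for the interaction. The number range as covariate gave 4 higher and 9 lower for FAN under time-restricted feeding. The lowest range alone gave 5 higher and 9 lower there, 13 higher and 2 lower for feeding in FAN mice and 4 higher for the interaction; the higher FAN range gave 0 lower for feeding. Without a filter there were 0 lower for feeding in FAN mice and 1 higher in vehicle mice; DESeq2 gave 1 higher in vehicle mice and 1 lower for the interaction. Leaving out 1 library gave 0 to 2 lower for feeding in FAN mice, 0 to 1 higher in vehicle mice and 0 to 1 lower for the interaction. The cause was not tested, except that the ranges hold fewer libraries.

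A replicate block on the shared numbers gave 15 higher and 0 lower for feeding in FAN mice and 0 each way in vehicle mice. Deviations of log levels from the group mean, not the levels themselves, were correlated between libraries of the feeding regimens. For same-numbered libraries the correlations were -0.13, -0.053 and -0.25 (FAN) and 0.18, 0.12, -0.15 and -0.013 (vehicle). Pairs with different numbers reached 0.26 (FAN) and 0.32 (vehicle), so same-numbered libraries did not stand out as more alike. Whether equal numbers mark more than a label is not settled by these values. No paired analysis was possible because the FAN and vehicle columns share no replicate number, for FAN against vehicle and the interaction. Among members past the threshold in either fit compared, 8 values changed sign. Under library-total scaling these were Cyp27a1 (feeding in FAN mice -0.019, interaction -0.011), Cyp2j6 (-0.21) and Cyp4f13 (-0.44). In the lowest range they were Cyp2d22 (-0.092) and Cyp4a14 (-0.12), and for Cyp2b10 the block (2.22) and leaving out FAN ad libitum 7 (1.80, the highest of a range from -0.91 when 1 library is left out, against -0.43 with all). Depth limits members near 3 counts, such as Cyp2c65, Cyp2c69 and Cyp2j8.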
